A study of Homo sapiens with 6 samples.

Results

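Collagen genes were those whose symbol is COL, a number, A and a number, as in COL1A1. They came to 43 of 19775 genes, measured by 112 of 54613 probe sets, where a probe set is the group of short probes that reads a transcript on an Affymetrix Human Genome U133 Plus 2.0 array. Each gene was represented by its probe set of highest mean over the 6 arrays, and its other sets served as a check. By the structure their proteins build, 11 genes (33 sets) were fibrillar, 6 (19 sets) were basement membrane collagens of type IV, and 26 (60 sets) were other collagens. The last class held 10 fibril-associated collagens with interrupted helices (FACIT), 5 beaded filament, 3 short-chain network, 3 transmembrane, 2 multiplexin, 1 anchoring fibril and 2 unclassed collagens.

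The arrays measured total RNA of SUM-LM1 (SUM159-LM1), a human breast cancer line derived from SUM159 cells and selected for metastasis to lung. All cultures were moved from plates with serum to ultra-low attachment plates at 12500 cells per ml in HuMEC medium. They received 50 ng/ml recombinant human activin B, a ligand of the TGF-β family (activin B group), or the vehicle, albumin in buffered saline (vehicle group), for 6 h. Each group had 3 arrays that the titles call biological replicates, and the comparison asked which transcripts of the cancer cells respond to a factor made by blood vessels in lung metastases. As a model this was a single derivative line, kept without a substrate and without the stromal cells that surround a tumor.

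Collagens are the main structural proteins of the extracellular matrix. Their chains wind around each other into a stiff helix inside the cell, are secreted, trimmed and cross-linked, and then form fibrils, sheets or filaments. Fibroblasts make most of the fibrillar collagen of a tissue, and TGF-β acting through SMAD proteins is a well-known inducer of fibrillar collagen transcription in them. In breast tumors, collagen I and collagen III fibrils fill the stroma, and type IV sheets form the basement membrane that epithelium and vessels rest on.

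The genes of the type IV collagens stand in head-to-head pairs, with the starts of both partners facing away from a short shared stretch of DNA. These stretches were picked for print after the signals described next were seen to follow these pairs. Their match to the signals is therefore a description and not a test. They were taken from RefSeq promoter windows of GRCh38.p14 and are written 5′ to 3′ on the plus strand, with capitals marking GC boxes (GGGCGG on either strand) and CCAAT boxes (CCAAT on either strand). The interval between COL4A1 and COL4A2 is chr13:110307158-110307283, that between COL4A4 and COL4A3 is chr2:227164489-227164623, and the bases before the start of COL4A5, on the side of COL4A6, are chrX:108439588-108439837.
COL4A1 to COL4A2: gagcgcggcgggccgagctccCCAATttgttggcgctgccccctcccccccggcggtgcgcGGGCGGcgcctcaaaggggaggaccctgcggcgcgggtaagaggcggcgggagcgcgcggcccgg
COL4A4 to COL4A3: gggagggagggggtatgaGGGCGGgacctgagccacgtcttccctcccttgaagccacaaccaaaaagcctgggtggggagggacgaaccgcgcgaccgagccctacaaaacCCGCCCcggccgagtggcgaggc
before COL4A5: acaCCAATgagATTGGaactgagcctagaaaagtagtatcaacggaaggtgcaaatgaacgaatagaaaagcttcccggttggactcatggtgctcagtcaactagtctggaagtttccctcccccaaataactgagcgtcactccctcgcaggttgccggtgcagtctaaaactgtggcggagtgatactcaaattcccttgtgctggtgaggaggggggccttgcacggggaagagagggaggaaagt

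The first interval was 126 bases long with 80.2% G and C, 1 GC box and 1 CCAAT box. The second was 135 bases long with 68.1% G and C, 2 GC boxes and no CCAAT box. The third is part of a gap of 379 bases, had 51.2% G and C over its 250 bases, and held 2 CCAAT boxes and no GC box. Over the 300-base windows around the starts of 31 collagen genes, GC boxes stood in 18 (58.1%, against 44.6% of 27305 windows of all genes), CCAAT boxes in 9 (29.0%, against 35.7%), the TATAAA box in 4 (12.9%, against 12.0%) and CAGAC, a SMAD box with a leading C, in 12 (38.7%, against 45.0%), each letter string being searched on both strands. These are matches of letters and not mapped binding sites. Of the genes with a window, 15 were above the mark of dim signal given below and 16 were not, and GC boxes stood in 9 of each. The other 12 collagen genes had no window.

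Values below are log2 signals after robust multiarray averaging (RMA), in which a difference of 1 is a 2-fold change. Signals of the collagen sets lay between 5.90 and 11.83. Brightness depends on the probes of a set, so signals of different genes were not ranked as transcript amounts. As a mark of the floor, 82 olfactory receptor genes, which breast cells are not known to use, had a median of 6.45 and a 95th percentile of 6.77, and 54.2% of all probe sets were at or under that line.

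By their mean over the 6 arrays, 21 of the 43 collagen genes were above this olfactory line, against 59.9% of all genes, and 22 were not. Of the collagen probe sets 44 of 112 were, against 45.8% of all probe sets. Above it were 7 of 11 fibrillar, 4 of 6 basement membrane and 10 of 26 other collagen genes. The spread between the 3 vehicle arrays was small, with a median SD of 0.07 over the collagen genes and also of 0.07 over all genes.

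**Figure D1:**
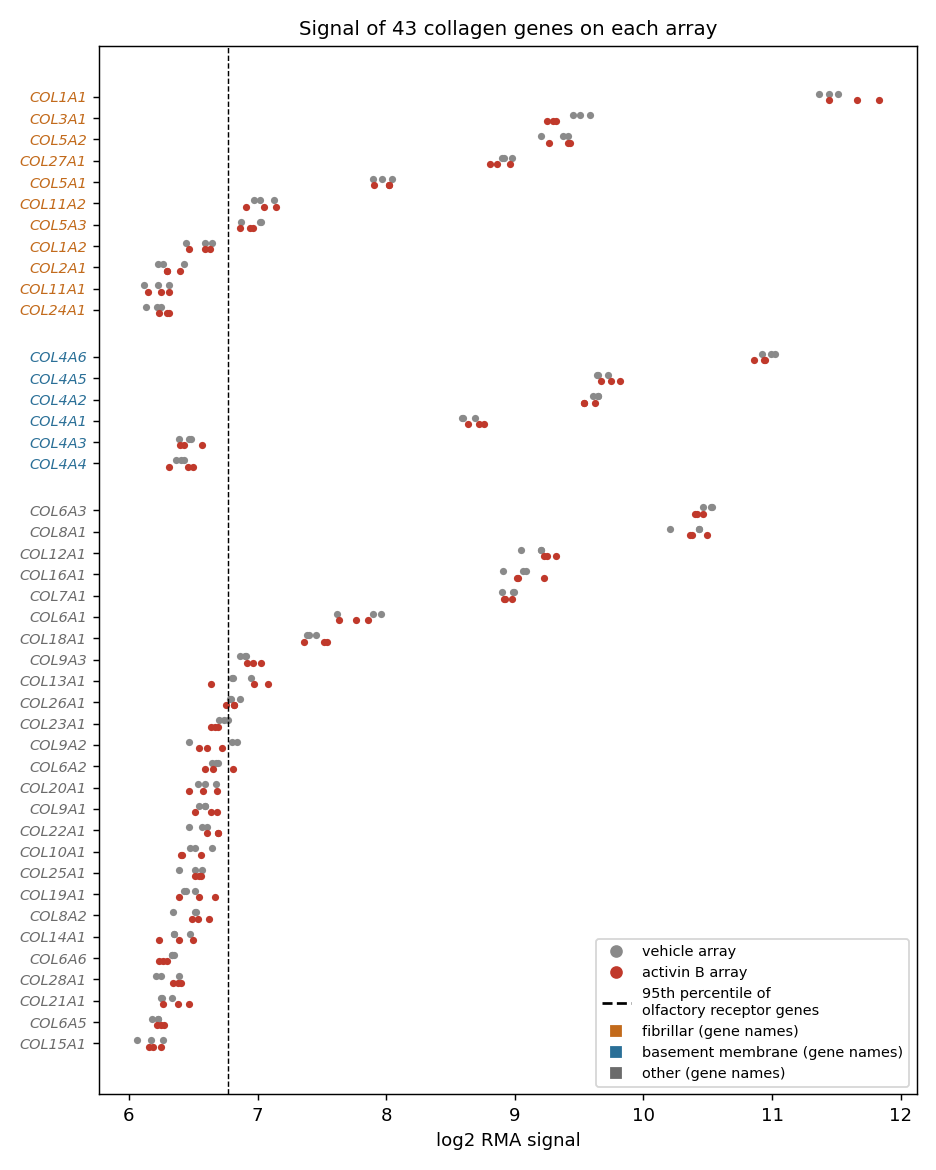
Log2 RMA signal of the representing probe set of each collagen gene (rows, grouped by class and ordered by signal) on the 3 vehicle arrays (gray) and the 3 activin B arrays (red), with the 95th percentile of the olfactory receptor genes dashed at 6.77. Of the 43 genes, 21 had a mean above the line, and the widest gap between group means was that of COL3A1, at 9.51 in vehicle and 9.29 in activin B cells.

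Among the fibrillar collagens, signal was above the line for COL1A1 and COL3A1, which encode the chains of the main stromal fibrils, for COL5A1, COL5A2 and COL5A3, the type V chains that start fibrils and set their width, and for COL11A2 and COL27A1. In vehicle cells COL1A1 had a signal of 11.44 ± 0.07 (SD, n = 3), COL3A1 9.51 ± 0.07, COL5A2 9.33 ± 0.11, COL27A1 8.93 ± 0.04 and COL5A1 7.97 ± 0.07. COL1A2, which encodes the partner chain of COL1A1 in the usual form of type I collagen, did not pass the line at 6.59, 6.45 and 6.65 on the vehicle arrays and 6.63, 6.59 and 6.47 on the activin B arrays. All 3 of its probe sets were dim, with means from 6.28 to 6.56. The cartilage fibril genes COL2A1 (6.31) and COL11A1 (6.22) and the gene COL24A1 (6.20) were also under it.

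The 5 probe sets of COL1A1 differed widely in brightness, from a mean of 6.62 to a mean of 11.54, and the brightest of them, 1556499_s_at, represents the gene. Its second brightest set, 217430_x_at, had a mean of 8.12. The vehicle level of 11.44 is thus the level of a single set, and whether its probes read COL1A1 alone was not tested. Both this level and the difference given for the set below carry that limit. The dimmest set, 202312_s_at, was under the olfactory line, and the other 4 were above it.

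On their representing sets, the type IV genes split by pair. COL4A1 (8.63 ± 0.06 in vehicle cells) and COL4A2 (9.63 ± 0.02), the chains of the common basement membrane network, were above the line, as were COL4A5 (9.67 ± 0.05) and COL4A6 (10.98 ± 0.05), which form a network found in selected epithelia and smooth muscle. COL4A3 (6.44 ± 0.05) and COL4A4 (6.40 ± 0.03), the chains of kidney and lung basement membranes, were not, and the brightest of 7 COL4A3 sets had a mean of 6.46. The other set of COL4A5 had a mean of 6.74, just under the line, while means of the COL4A6 sets ran from 7.19 to 10.95. By the representing sets, the intervals printed above lie between, or on the edge of, partners on the same side of the line. COL4A6 had vehicle signals of 10.92, 10.99 and 11.03 and activin B signals of 10.86, 10.94 and 10.94, and the groups overlapped.

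Over the genome, 7 pairs of measured collagen genes are direct neighbors, with no other protein-coding gene starting between them in RefSeq. In 3 both were above the line (COL4A1 with COL4A2, COL4A6 with COL4A5, COL3A1 with COL5A2), in 3 neither was (COL4A4 with COL4A3, COL6A5 with COL6A6, COL19A1 with COL9A1), and the pair on chromosome 21 was mixed. In that pair COL6A1 had a vehicle signal of 7.83 ± 0.18 and COL6A2 6.67 ± 0.02, with COL6A2 on 2 sets. COL6A3, the third chain of the common type VI beaded filament, read 10.50 ± 0.04 on its only set. Sides of the line in these 7 pairs are those of the representing sets, on which 21 of all 43 collagen genes were above it. Whether neighbors share a side more often than other pairs was not tested.

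Of the remaining collagens, the brightest were COL6A3, COL8A1 (10.35 ± 0.13), a short-chain collagen of vessel walls and corneal membranes, COL12A1 (9.15 ± 0.09) and COL16A1 (9.02 ± 0.10), both FACIT collagens that decorate fibrils, and COL7A1 (8.96 ± 0.05), the anchoring fibril collagen that ties epithelium to the dermis. COL18A1, the source of endostatin, had a signal of 7.42 ± 0.04. COL9A3, COL13A1 and COL26A1 lay just above the line, between 6.81 and 6.89. The other 16 genes of this class did not pass it, among them COL10A1 (6.55 ± 0.09), the collagen of hypertrophic cartilage. The members nearest the line were COL26A1 (6.81) just above it and COL23A1 (6.74) just under it.

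The treated arrays showed a response at transcripts known as SMAD targets, while SMAD activity itself was not measured. ID1, a known SMAD target, rose by 2.25 ± 0.11 (SE, limma adjusted p = 7.7e-08), ID3 by 2.85 ± 0.13 and ID2 by 1.47 ± 0.09. SMAD7, the inhibitory SMAD, rose by 0.63 ± 0.06, and all 4 had an adjusted p under 0.05. The study itself named ID1, ID2 and ID3 among the genes most induced by activin B, so their rise is no independent finding. Beside this response, no collagen gene and no collagen probe set was called.

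By limma, 0 of 43 collagen genes and 0 of 112 collagen probe sets had an adjusted p under 0.05, where 0.192% of all genes (0.101% rising and 0.091% falling) and 0.121% of all probe sets (0.0732% and 0.0476%) did. At such a background a count of 0 in a list of this size does not set collagens apart. The smallest adjusted p was 0.522 for a gene (COL3A1) and 0.279 for a probe set (202310_s_at of COL1A1). At an unadjusted p under 0.05 there were 2 genes, COL1A1 higher and COL3A1 lower (4.65%, against 5.89% of all genes, 3.14% higher and 2.75% lower). There were also 10 probe sets (8.93%, against 5.28% of all probe sets), 4 of them higher and 6 lower (background 2.81% and 2.47%).

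Log2 changes of the 43 genes, activin B minus vehicle, ran from -0.22 to 0.20 with a median of 0.02, and the median of all genes was -0.00. Their median size was 0.06, against 0.05 for all genes. Of the 43, 27 were higher and 16 lower, where 9704 of all 19775 genes were higher and 10071 lower. The split was 11 higher and 10 lower for the 21 collagen genes above the olfactory line. It was 16 higher and 6 lower for the 22 genes not above it. The median change was 0.01 for fibrillar, 0.02 for basement membrane and 0.04 for other collagens. Every 95% interval lay within 0.5 of zero and 37 of 43 lay within 0.25, with the lowest bound at -0.36 (COL3A1) and the highest at 0.39 (COL1A1). Most genes had such intervals, 19696 of all 19775 within 0.5 and 15663 within 0.25. Since RMA compresses differences near the floor, the narrow intervals of the 22 dim genes say little about their transcripts. In RNA of a whole culture, fewer cells with a transcript and less of it per cell cannot be told apart.

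**Figure D2:**
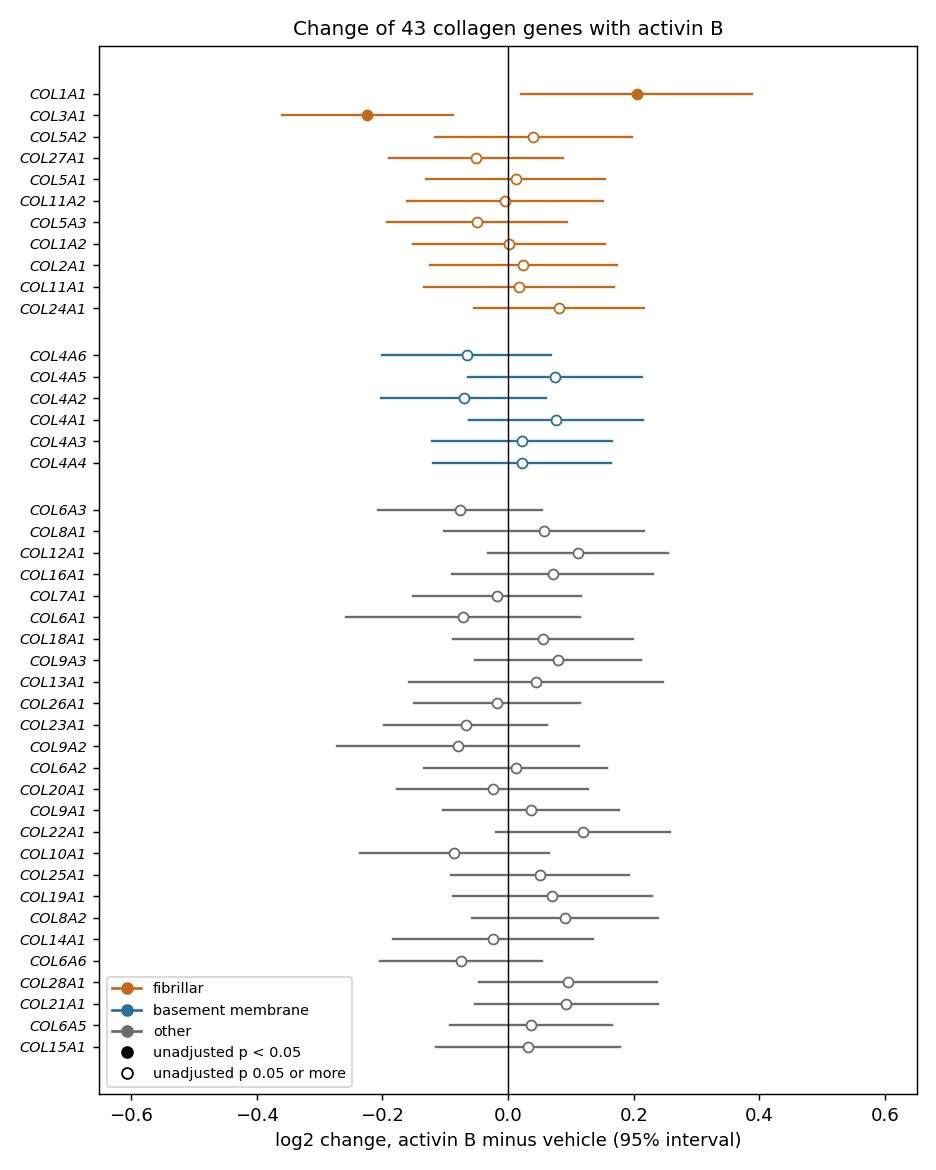
Log2 change (activin B minus vehicle) of each collagen gene with its 95% interval from limma, grouped by class (colors) and ordered by signal within a class, with filled points for an unadjusted p under 0.05. COL1A1 (0.20) and COL3A1 (-0.22) lie farthest from zero in opposite directions, and neither passed the adjusted threshold.

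COL1A1 had vehicle signals of 11.51, 11.44 and 11.37 and activin B signals of 11.83, 11.66 and 11.44 on its representing set. Activin B replicates 1 and 2 were above every vehicle array, and replicate 3 had the value of vehicle replicate 2, so the groups overlapped. The change was 0.20 ± 0.09, a fold of 1.15, with a 95% interval of 0.02 to 0.39, an unadjusted p of 0.032 and a limma adjusted p of 0.914.

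Of the other COL1A1 sets, 2 separated the groups. Set 202310_s_at read 7.64, 7.36 and 7.55 in vehicle and 7.81, 7.82 and 7.84 in activin B cells, a change of 0.31 ± 0.07 (adjusted p = 0.279). Set 202311_s_at read 7.34, 7.24 and 7.19 in vehicle and 7.498, 7.47 and 7.57 in activin B cells, a change of 0.26 ± 0.07 (adjusted p = 0.359). In both, all 3 activin B arrays were above all 3 vehicle arrays. The remaining sets, 217430_x_at (0.05) and 202312_s_at (-0.06), overlapped and differed in sign.

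COL3A1 had the opposite sign. Its representing set, 215076_s_at, read 9.59, 9.51 and 9.45 in vehicle and 9.30, 9.25 and 9.32 in activin B cells, and the activin B arrays were all below the vehicle arrays. The change was -0.22 ± 0.06, a vehicle level 1.17 times that of activin B cells, with a 95% interval of -0.36 to -0.09, an unadjusted p of 0.003 and an adjusted p of 0.522.

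All 5 COL3A1 sets were lower in activin B cells, and 4 of them without overlap. Set 201852_x_at read 8.52, 8.71 and 8.51 in vehicle and 8.17, 8.30 and 8.36 in activin B cells, a change of -0.30 ± 0.07 (adjusted p = 0.304). Set 211161_s_at read 8.16, 8.13 and 7.99 in vehicle and 7.92, 7.80 and 7.83 in activin B cells, a change of -0.24 ± 0.07 (adjusted p = 0.522). The dim sets 232458_at and 215077_at had log2 differences of -0.13 and -0.10. Names ending in _x_at or _s_at mark sets whose probes can match more than 1 transcript. All 5 COL1A1 sets and 3 of the COL3A1 sets are of this kind, and with the other kind of set in their place COL3A1 had a log2 difference of -0.13 (adjusted p = 0.959). Sets of a gene read the same 6 RNA samples, so their agreement is not further replication.

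**Figure D3:**
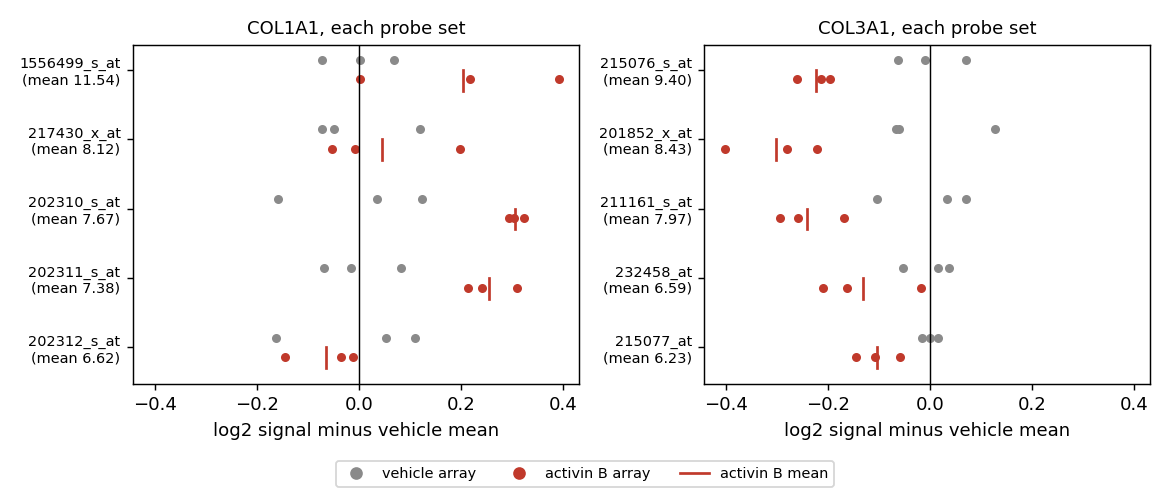
Signal of each probe set of COL1A1 (left) and COL3A1 (right) on each array, as the log2 difference from the mean of the 3 vehicle arrays of that set, with the mean of the 3 activin B arrays as a red bar and the mean signal of the set beside its name. Of the COL1A1 sets, 202310_s_at and 202311_s_at lay apart upward, while all 5 COL3A1 sets had a mean below zero.

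Activin B replicate 3 stood apart from the other arrays on the first principal component of all probe sets. Without it, the COL1A1 change was 0.31 (adjusted p = 0.326) and the COL3A1 change -0.24 (adjusted p = 0.545). Without activin B replicate 1, which had the highest COL1A1 signal, the COL1A1 change was 0.11.

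The type V chains, which join both of these collagens in mixed fibrils, had log2 differences close to zero, of 0.01 for COL5A1 (95% interval -0.13 to 0.15), 0.04 for COL5A2 (-0.12 to 0.20) and -0.05 for COL5A3 (-0.19 to 0.09). Differences of the 3 COL5A1 sets ran from -0.03 to 0.01. COL27A1, a fibrillar collagen of cartilage, had 5 sets with log2 differences of both signs, from -0.14 (225292_at, adjusted p = 0.934) to 0.25 (230603_at, adjusted p = 0.672), and both of those had an unadjusted p under 0.05. Its representing set had a log2 difference of -0.05 ± 0.07. Fibrillar sets made up 8 of the 10 collagen sets at that unadjusted threshold, 4 higher and 4 lower. This was 24.2% of the 33 fibrillar sets, against 5.28% of all probe sets. The COL1A1 and COL3A1 sets were 6 of the 8, and sets of a gene read the same RNA samples. With 1 set per gene it was 2 of 11 fibrillar genes (18.2%, against 5.89% of all genes).

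The bright type IV genes had small differences. COL4A1 had a log2 difference of 0.08 (95% interval -0.06 to 0.22), COL4A2 of -0.07 (-0.20 to 0.06), COL4A5 of 0.08 (-0.06 to 0.21) and COL4A6 of -0.07 (-0.20 to 0.07). In both pairs the fitted signs of the partners were opposite on the representing sets, with all of these intervals spanning zero. The 3 sets of COL4A6 ran from -0.07 to 0.06, 2 of them higher and 1 lower. Among the dim sets of COL4A3, 216367_at had a log2 difference of -0.20 ± 0.06 (adjusted p = 0.635) and the representing set of 0.02, the 7 sets running from -0.20 to 0.02.

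For the remaining collagens, groups did not overlap for COL12A1 and COL9A3, which were higher in activin B cells, and for COL6A6 and COL23A1, which were lower. With COL3A1 these made 5 of 43 genes (11.6%, against 10.3% of all genes, 5.14% higher and 5.21% lower). Of the 112 sets, 17 did not overlap (15.2%, against 9.79% of all probe sets), 6 higher and 11 lower (background 4.91% and 4.89%). COL12A1 read 9.05, 9.21 and 9.21 in vehicle and 9.23, 9.25 and 9.32 in activin B cells, a change of 0.11 ± 0.07 (adjusted p = 0.988). The lowest activin B array and the highest vehicle array lay within 0.02 of each other, and its 5 sets ran from -0.15 to 0.11.

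COL6A3 read 10.53, 10.46 and 10.52 in vehicle and 10.40, 10.42 and 10.46 in activin B cells. The activin B arrays lay toward the lower end, the groups overlapped narrowly, and the change was -0.08 (95% interval -0.21 to 0.05). COL8A1 had a log2 difference of 0.06 (-0.10 to 0.22), COL16A1 of 0.07 (-0.09 to 0.23) and COL7A1 of -0.02 (-0.15 to 0.12). Differences of the 8 sets of COL6A1 ran from -0.09 to 0.15. COL10A1 had a log2 difference of -0.09 on its representing set and of -0.19 on 217428_s_at (adjusted p = 0.799), both dim.

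Genes that make, bind, cleave or regulate collagen were followed in 7 lists of 85 measured genes. Of these, 2 rose and 0 fell by limma (against 0.101% and 0.091% of all genes), and 11 had an unadjusted p under 0.05 (12.9%, against 5.89% of all genes). Groups did not overlap for 16 of them (18.8%, against 10.3% of all genes). The median change of the 85 was 0.00, and both genes that rose were in the list of TGF-β regulators. These 10 regulators held 4 of the 11 and 4 of the 16, and SMAD7 among them is also in the check of the response above. Of the 85 genes, 63 were above the olfactory line, where the shares of all genes were 6.91% and 11.1%. The lists were chosen with earlier results of these data known, so the shares are a description and not a test.

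Enzymes and chaperones of collagen biosynthesis were all above the olfactory line, 20 of 20. They include, with vehicle means, P4HB (11.98), the shared subunit of prolyl 4-hydroxylase, SERPINH1 (11.30), the collagen chaperone of the endoplasmic reticulum, and PPIB (12.97), a prolyl isomerase. None was called, and 3 of the 20 had an unadjusted p under 0.05 (against 5.89% of all genes and 6.91% of all genes above the line). FKBP10, an isomerase that acts on type I procollagen, read 8.81, 8.57 and 8.78 in vehicle and 8.98, 8.83 and 8.94 in activin B cells, a change of 0.20 ± 0.08 (adjusted p = 0.858). TRAM2, which takes part in type I collagen synthesis at the translocon, had a log2 difference of -0.18 (adjusted p = 0.910), and CREB3L1, a transcription factor of COL1A1 in bone, of 0.14 (adjusted p = 0.934).

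Of 13 processing and cross-linking genes, 6 were above the line and none was called. LOX, the lysyl oxidase that cross-links fibrils, was near the floor at 6.71, 6.62 and 6.70 in vehicle and 7.03, 6.73 and 6.80 in activin B cells. These groups did not overlap, with a change of 0.18 ± 0.08 (adjusted p = 0.934). ADAMTS2, which cuts the amino-terminal propeptide of procollagen, had a log2 difference of 0.13 (adjusted p = 0.959), and TLL1, a protease of the carboxy-terminal propeptide, of -0.08 (adjusted p = 0.995).

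Among 15 fibril partners, 7 were above the line, among them FN1, fibronectin, at 12.60, and none was called. CCN2, a matricellular target of TGF-β, had a log2 difference of 0.19 (adjusted p = 0.874), POSTN, periostin, of 0.15 (adjusted p = 0.934), and SPARC, which binds collagen, of 0.20 (adjusted p = 0.982). CCN2 and POSTN were dim in vehicle cells, at 6.43 and 6.21.

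The basement membrane partners held the collagen-related gene closest to a call outside the regulators. PXDN, peroxidasin, which forms the sulfilimine cross-links of the type IV network, read 6.48, 6.61 and 6.40 in vehicle and 6.83, 6.74 and 6.92 in activin B cells. All 3 activin B arrays were above all vehicle arrays, with a change of 0.33 ± 0.07 (95% interval 0.18 to 0.49, adjusted p = 0.158), and the vehicle level was under the olfactory line. The laminin chains LAMA5 and LAMA4 had log2 differences of -0.18 (adjusted p = 0.947) and 0.16 (adjusted p = 0.982), and none of the 11 partners was called.

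Collagen receptors (9 measured, 7 above the line) and collagenases (7 measured, 6 above the line) gave no call and no unadjusted p under 0.05. ITGA2, the alpha chain of the collagen-binding integrin on epithelium and platelets, read 12.14, 12.12 and 12.11 in vehicle and 12.27, 12.23 and 12.16 in activin B cells, without overlap and with a change of 0.10 (adjusted p = 0.989). The platelet receptor GP6 had a log2 difference of -0.11 (adjusted p = 0.991) and the endocytic receptor MRC2 of 0.06 (adjusted p = 0.995). MMP1, the interstitial collagenase, had a signal of 13.61 in vehicle cells and a log2 difference of -0.00. MMP14, a membrane-bound collagenase, had a log2 difference of -0.11 (adjusted p = 0.972), MMP8 of -0.11 (adjusted p = 0.988) and MMP13 of 0.07 (adjusted p = 0.999).

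Of the 10 regulators by which TGF-β signaling acts on collagen genes, SMAD7 and SKIL, both inhibitors that the pathway induces against itself, rose. SKIL rose by 0.66 ± 0.08 (adjusted p = 0.0014), and it was not called when the mean of all its probe sets was used. SP1, which binds GC boxes such as those printed above, had a log2 difference of -0.14 (adjusted p = 0.928), and FLI1, a repressor of type I collagen genes in fibroblasts, of 0.18 (adjusted p = 0.909).

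**Figure D4:**
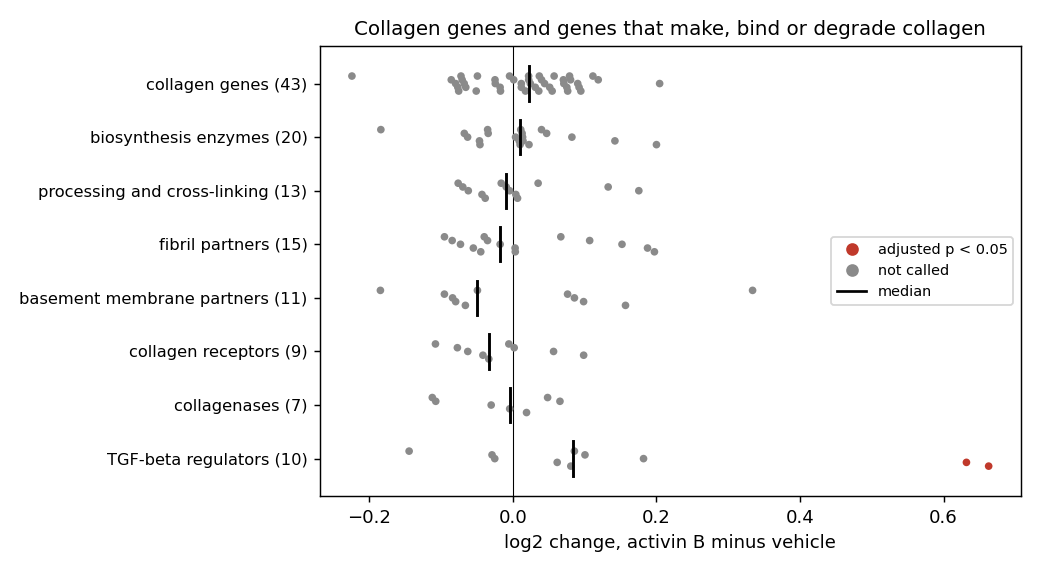
Log2 change (activin B minus vehicle) of each collagen gene and of each measured gene in the 7 lists (rows, with the number of genes), with medians as black bars and genes of an adjusted p under 0.05 in red. Only SKIL (0.66) and SMAD7 (0.63), both in the bottom row, were called.

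The cells carried mesenchymal transcripts, and some epithelial and luminal ones were dim. All 6 mesenchymal markers were above the olfactory line, with vehicle means of 13.89 for VIM and 12.50 for CD44. Of 9 epithelial and luminal markers 5 were above it, among them KRT18 (12.09). The other 4 were not, among them EPCAM (6.20), CDH1 (6.27) and PGR (6.51). Of 9 fibroblast markers 6 were above it (PDGFRA at 10.30) and LUM (6.26), DPT (6.47) and FAP (6.59) were not. Of 8 endothelial markers 2 were above it (ERG, PECAM1), with CDH5 at 6.08, and of 7 leukocyte markers 1 was, with PTPRC at 6.22. None of these markers was called.

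The mean of the fibroblast list ran from 7.54 to 7.58 on the vehicle arrays and from 7.54 to 7.61 on the activin B arrays. That of the mesenchymal list ran from 10.94 to 10.98 and from 10.999 to 11.07, and that of the endothelial list from 6.88 to 6.96 and from 6.82 to 6.86. The means of these last lists thus did not overlap between groups, the mesenchymal mean being higher and the endothelial mean lower in activin B cells. Means of the epithelial list (7.62 to 7.66 in vehicle, 7.64 to 7.68 in activin B cells) and of the leukocyte list (6.48 to 6.51 and 6.46 to 6.61) overlapped. By gene, 1 of 6 mesenchymal (16.7%) and 1 of 8 endothelial markers (12.5%) did not overlap, against 10.3% of all genes. The shares were larger for epithelial (3 of 9, 33.3%) and fibroblast markers (2 of 9, 22.2%), and 1 of 7 (14.3%) for leukocyte markers. Of the 8 endothelial markers, 6 were not above the olfactory line. The part of these lists in the COL1A1 and COL3A1 values was not tested. Array medians were 6.69 to 6.70, correlations between arrays 0.993 to 0.996, and 3 arrays per group limit the precision of every value given here.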

How the data were processed

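Total RNA of SUM-LM1 cells was hybridised to 6 Affymetrix arrays, 3 per group, with 50 ng of RNA as input. Per the study's methods, the authors ran robust multiarray averaging on the scanner files in Chipster, which gave the deposited log2 signals. This equalizes the distributions of the arrays, which removes a change shared by most transcripts, and compresses differences near background. Scanner files were not used here.

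Without the 62 array controls, 54613 probe sets were fitted with limma 3.58.1 in R 4.3.3 (activin B minus vehicle, empirical Bayes, prior degrees of freedom 10.8), with Benjamini-Hochberg adjustment over all of them and calls at an adjusted p under 0.05. Errors of changes are standard errors of this model. Gene names came from the platform annotation, in which 41091 sets carried 1 symbol, and those with several (1801) or none (11721) named no gene. RefSeq (GRCh38.p14) gave neighbors and promoter windows, for 31 of 43 collagen genes.

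Collagen genes were named in the text if called, if any of their sets had an unadjusted p under 0.05, or if among the 5 brightest of their class, and so were the 3 genes of smallest p in each list. Others were added for their role after their values were seen. The members and lists were chosen with earlier results of these data known. The fit was tested on simulated data. In all, 18 alternatives were tried. P values set each change against the spread between these cultures, moderated by the spread of all probe sets.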

Additional observations from a re-analysis of the deposited data

How the results depend on the processing

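Under all 18 alternatives (another normalization or prior, filters on dim sets, array weights, other ways to represent a gene, looser thresholds of 0.05 for the unadjusted p, 0.25 for the adjusted p and 0.5 for the size of the log2 change, a replicate block, and leaving out each array) 0 collagen genes were called, and 0 collagen probe sets under the 16 that test sets. The smallest adjusted p of a collagen set ran from 0.142 to 0.953, the latter without vehicle replicate 2. COL1A1 and COL3A1 kept their signs under all 18, with adjusted p from 0.326 to 1.00 and from 0.290 to 0.999. With the mean of all probe sets of a gene, 1 gene of the collagen lists rose (SMAD7) in place of 2, and the sign turned for COL12A1 (-0.030), COL27A1 (0.024), COL4A3 (-0.041), COL4A6 (0.015), COL5A1 (-0.0035) and COL7A1 (0.052). With sets other than _x_at and _s_at, it turned for COL5A1 (-0.033) and COL7A1 (0.12). Leaving out 1 array, changes ran from -0.029 to 0.055 for COL4A3, -0.023 to 0.052 for COL5A1, -0.024 to 0.092 for COL5A2 and -0.018 to 0.096 for COL8A1, and median changes from -0.03 to 0.04 for fibrillar and -0.01 to 0.05 for basement membrane genes. None of these sign changes was of a called value, and the cause was not tested. COL10A1 and COL4A3 gave no value under the filters on dim sets.

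Same-numbered arrays deviated together with correlations of 0.162, 0.041 and 0.192, so the numbers were not taken to pair the samples, although 6 of 6 arrays correlated best with their own number, a hint from the data and not from the design. With the replicate block, 53 sets rose and 44 fell over the whole array, in place of 40 and 26. Collagen genes rising and falling stayed at 0, and 11 collagen sets had an unadjusted p under 0.05 (9.82%, against 6.72% of all probe sets in the same fit). The smallest adjusted p with the block was 0.142, for 201852_x_at of COL3A1.

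Signal over background limits the 22 collagen genes near the floor, whose changes RMA compresses. Groups of 3 arrays were too small to look for outlying arrays gene by gene.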
